A study of Rattus norvegicus with 8 samples.

Results

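Voltage-gated calcium and sodium channels, the hyperpolarization-activated HCN channels, TRP channels of the C, M and V classes, CLC chloride channels and transporters, and the ryanodine and IP3 receptors were examined together in the rat hippocampus. Members were taken by gene name: every probe, controls aside, whose name in the array files begins with Cacn, Scn, Hcn, Trpc, Trpm, Trpv, Clcn, Ryr or Itpr followed by the family's usual number or letter. This gave 103 of 15207 probes and 76 of 12550 genes or unnamed probes. The name rule also took in Trpc4ap, a protein that associates with TRPC channels and is no channel itself. No probe carried the name Ryr2.

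The tissue was whole hippocampi of rats aged 2 months, with 4 control samples and 4 samples of the group PNFLX. Control pups had received a vehicle of 5% sucrose solution and PNFLX pups fluoxetine (10 mg/kg), which blocks serotonin reuptake, from postnatal day 2 to day 21. Each sample's Cy3-labelled RNA was hybridised to an 8x15k custom Agilent array of 60-base probes, so the adult tissue was read well after the treatment had ended. No strain, sex or genotype was used here, and the labels do not say whether samples came from separate animals, so the p-values measure the spread between these samples.

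Calcium channels carry calcium through a pore-forming alpha1 subunit, and alpha2delta, beta and gamma subunits set how much of it reaches the membrane and how it gates. Sodium channels, built of a pore-forming alpha subunit and beta subunits, start and propagate the action potential. HCN channels open when the membrane hyperpolarizes and are known for damping the summation of inputs on the distal dendrites of hippocampal pyramidal cells. Ryanodine and IP3 receptors release calcium from the endoplasmic reticulum, and TRPC channels admit it after receptor activation.

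Levels are log2 signal minus the log2 of the array's 75th percentile, so that 0 is the level of the probe at the 75th percentile; a level is not comparable between probes. A gene was tested where the scanner software had marked a probe as clearly above background on 4 or more of the 8 arrays, and its brightest probe stood for it. Of the 76 genes 62 were tested, 51 of them with a probe above background on all 8 arrays. The other 14 were Cacna1f, Cacna2d2, Cacng5, Clcn1, Hcn4, Itpr2, Scn4a, Scn7a, Trpc2, Trpc7, Trpm3, Trpm5, Trpm8 and Trpv5. For 6 of these, Cacng5, Hcn4, Scn4a, Trpc2, Trpm5 and Trpv5, no array had a probe well above background.

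Between 70.5% and 77.9% of all probes were well above background on an array, and the 75th percentile of the signal lay between 654 and 941. Of 8 listed markers of excitatory neurons 6 were on the array, and all 6 passed the filter. Their summed linear level was 42.8 to 49.5 in control samples and 41.4 to 52.0 in PNFLX. Meningeal and fibroblast markers were higher in PNFLX for 6 of 7 genes, 3 of them at an unadjusted p under 0.05, with summed levels of 13.7 to 17.6 in control and 17.0 to 40.7 in PNFLX. Oligodendrocyte markers were lower for 7 of 7, with summed levels of 65.9 to 82.9 and 48.4 to 76.6. Erythrocyte markers were higher for 4 of 4, 2 at an unadjusted p under 0.05 (1.07 to 1.23 and 0.954 to 2.38). Choroid plexus markers were lower for 4 of 4 (3.26 to 41.4 and 3.20 to 5.31), and astrocyte markers were lower for 3 of 6 (40.4 to 42.6 and 32.9 to 40.7). Markers of inhibitory neurons were lower for 4 of 6, 1 at an unadjusted p under 0.05 (48.3 to 50.6 and 38.3 to 60.8). Microglia markers were lower for 5 of 7 (18.9 to 25.1 and 18.4 to 20.8). Endothelial markers were lower for 3 of 5 and thalamic markers for 2 of 4. Among all genes tested 12.8% had an unadjusted p under 0.05 by limma. None of the markers listed here passed the adjusted threshold, and their part in the channel results was not tested. In RNA of a whole tissue, fewer cells of a type and less RNA per cell cannot be told apart.

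Of the 62 channel genes 1 passed the adjusted threshold between PNFLX and control, on the lower side. Scn2b, Cacng1 and Cacng6, at -0.67, -2.02 and -0.55, and Scn2a and Scn1a, at 1.32 and 0.68, did not pass it. Further spots gave less: the bases of Cacng1 at another place -0.06, those of Scn1a -0.15 and a second Scn2a sequence 0.30, while the 1.32 of Scn2a has 1 control value behind it. With normexp background correction (offset 50) and quantile scaling Scn1a was at 0.07, Scn2b at -0.10 and Cacng6 at -0.03. In that setting Clcn3 was at -0.68 and Scn2a at 2.85, again with 1 control value. Cacng1 was at -0.72 there and passed the adjusted threshold. Among all 9440 genes tested, 48 passed at an adjusted p under 0.05 (limma, Benjamini-Hochberg over all of them), which is 0.508%, or 0.222% counting lower genes only. At an unadjusted p under 0.05, 8 channel genes differed, 3 higher (Scn2a and Scn1a among them) and 5 lower (Scn2b, Cacng1, Cacng6 and Clcn3 among them), where 12.8% of all genes did, 5.06% higher and 7.69% lower. The groups did not overlap for 3 channel genes that were higher (Scn2a, Scn1a, Itpr1) and 3 that were lower (Scn2b and Cacng1 among them). All genes gave 4.46% and 6.57%. No channel gene passed the adjusted threshold after each array's row and column medians were subtracted, without the first and last 5 spot rows, without any 1 control sample, or without PNFLX 2 or PNFLX 4 (limma, with 6, 4 and 7 to 12 channel genes at an unadjusted p under 0.05). The 62 channel genes therefore sat close to the array as a whole: 36 were lower, or 58.1% against 54.5% of all genes, and their median log2 difference was -0.10 against -0.04. For 44 of the 62 the difference was smaller than 0.5 log2 units either way.

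**Figure D1:**
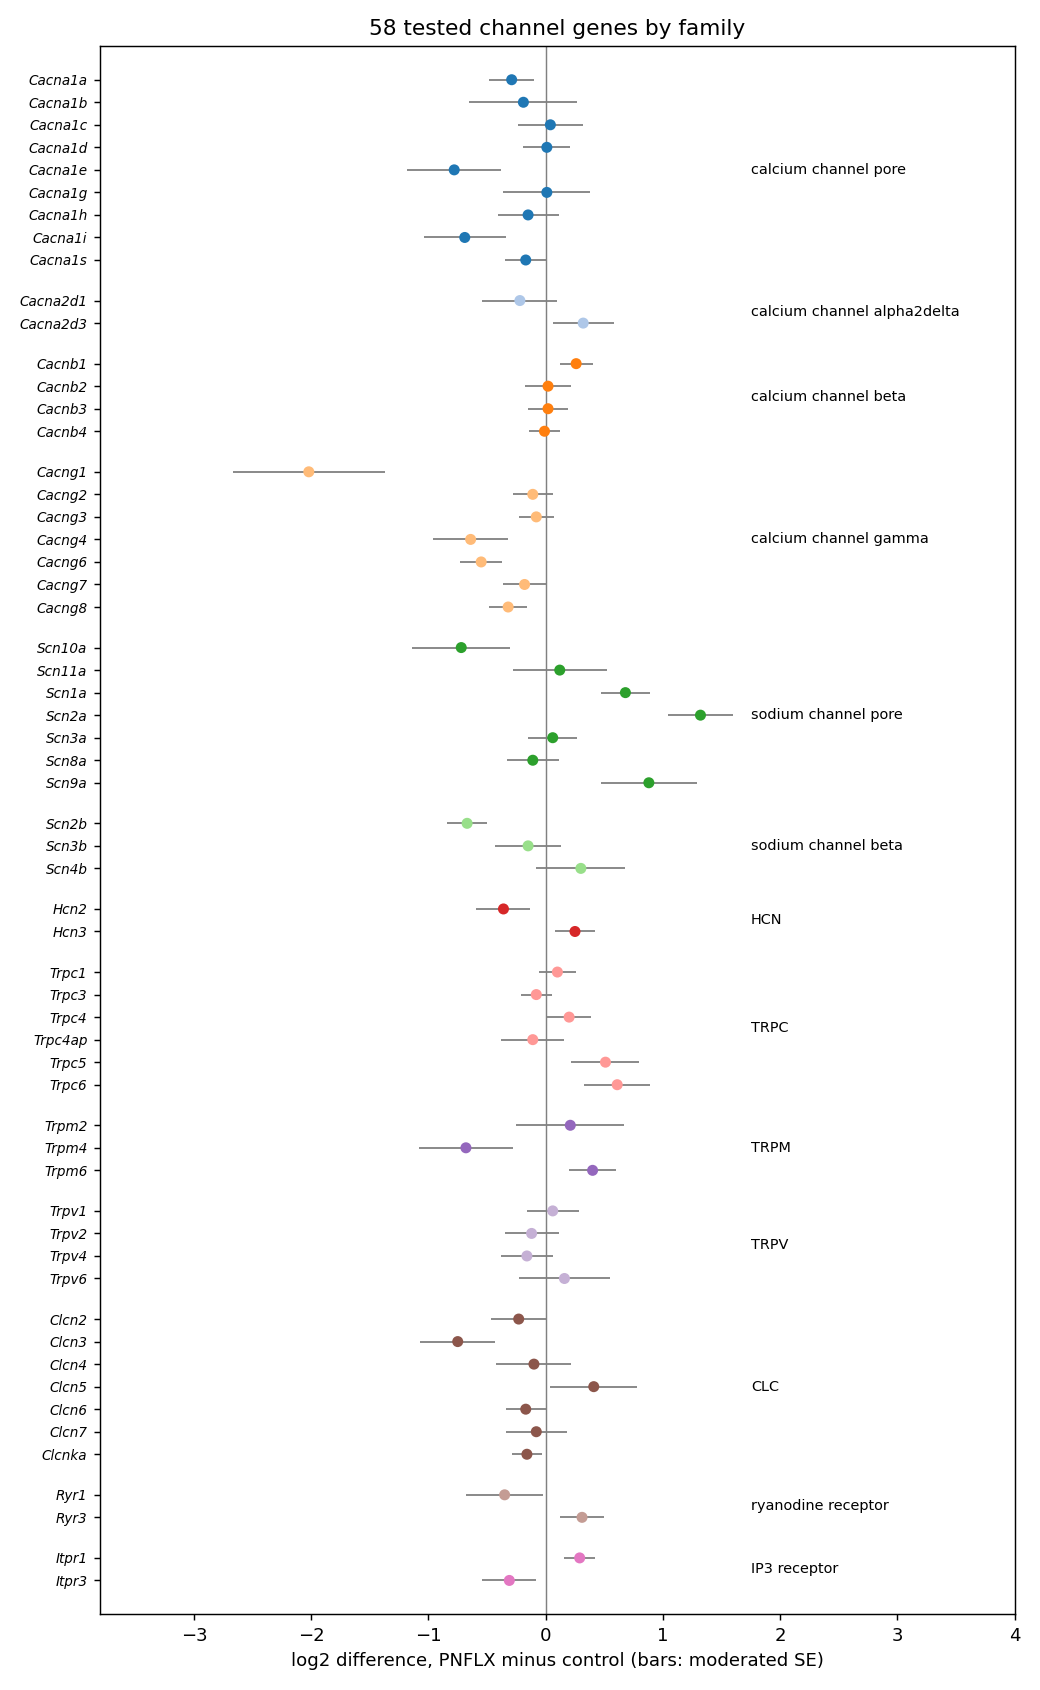
Log2 difference between PNFLX and control (horizontal axis, points) with limma's moderated SE (bars) for 58 tested channel genes, grouped and coloured by family. Cacng1 is drawn at its measured -2.02 although its spot was not well above background on any PNFLX array, and Scn2a at 1.32 with 1 control value; 44 of these genes lie within 0.5 of 0.

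HCN subunits were read for Hcn2 and Hcn3 with overlapping groups. Hcn2, an HCN subunit of the brain, had control levels of -2.61, -2.80, -3.01 and -3.16 and PNFLX levels of -3.22, -3.15, -2.83 and -3.85, which overlap. Its difference was -0.36 (SE 0.23, adjusted p = 0.546 by limma). A further spot of the same Hcn2 sequence gave -0.24. Hcn3 differed by 0.25 (SE 0.17, adjusted p = 0.559).

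The place of a spot on the array went with the group difference across all genes, which touches several members. Probes passing the filter in the first 5 rows had a median difference of 0.75, those in the last 5 rows -0.79 and those in rows 21 to 172 -0.05. Of the channel probes, 5 lay in the first 5 rows, 3 in the last 5 and 84 in rows 21 to 172. Control and PNFLX arrays occupied separate position series on 1 slide, so slide position and group cannot be told apart. Rows 1 and 192 had medians of 1.25 and -2.01.

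**Figure D2:**
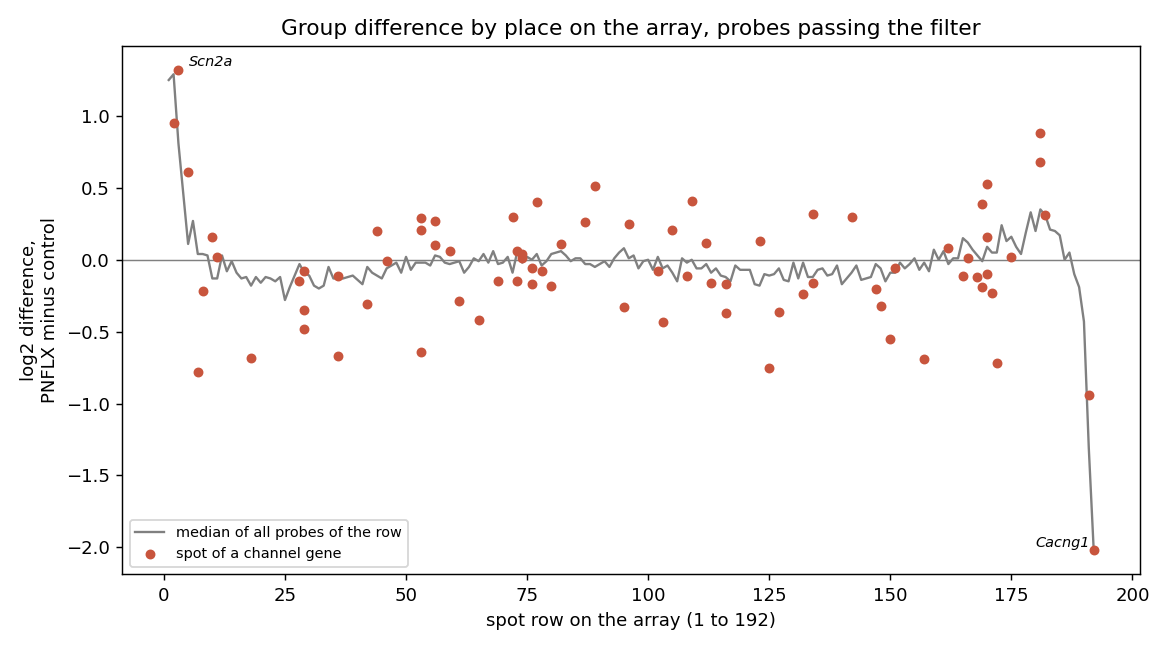
Log2 difference between PNFLX and control (vertical axis) against the spot row (horizontal axis, 1 to 192) for probes of the channel genes described here that passed the filter (points), with the median of all such probes of each row (grey line). The line runs from above 1 in rows 1 and 2 to about -2.01 in row 192, and Scn2a and Cacng1, named where the measured difference is over 1, lie at its ends.

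Among sodium channel genes 5 of 8 pore-forming genes were higher and 3 of 4 beta genes lower. None passed the adjusted test (limma), and 3 of the 12 had an unadjusted p under 0.05, where 12.8% of all genes did. The medians were 0.09 and -0.41. The beta genes lower in PNFLX were 2 of 4 under quantile scaling or no scaling and 1 of 4 under normexp. Scn2b, a beta subunit linked to the alpha subunit by a disulfide bond, stood lower in every PNFLX sample. Its probe, at chr8:48086524-48086583 on the forward strand, is shown because it lies well inside the array, in row 36, and the capitals mark whole codons of its only forward frame without a stop. Positions are on rn4, from the files.
Scn2b: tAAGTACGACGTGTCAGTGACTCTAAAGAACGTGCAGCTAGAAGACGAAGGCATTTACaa
Control levels were -2.11, -2.12, -2.20 and -2.53, and PNFLX levels were -3.23, -2.91, -2.61 and -2.88. The groups did not overlap. The difference was -0.67 (SE 0.17; 1.59-fold lower), with an unadjusted p of 0.00419 and an adjusted p of 0.156 by limma. None of the 62 other tested probes of row 36, whose median was -0.12, was further down. With row and column medians subtracted it was -0.53 (adjusted p = 0.42), and with another background correction (normexp) and quantile scaling -0.10 (adjusted p = 0.659).

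Scn2a, the alpha subunit of excitatory axons and of developing neurons, was read by probes of 2 sequences, in rows 3 and 142. The brighter is shown because it gave the highest difference described here.
Scn2a, spot row 3: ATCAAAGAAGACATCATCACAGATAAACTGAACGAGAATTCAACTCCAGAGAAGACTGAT
It lies at chr3:47616658-47616717 on the forward strand, and its only open forward frame fills all 60 bases, in capitals. The row 3 spot had an outlier mark on 3 control arrays and 1 PNFLX array. The values left were 2.22 in control 2 and 3.47, 3.39 and 3.77 in PNFLX 2 to 4. The difference of 1.32 (SE 0.28, adjusted p = 0.199 by limma) thus rests on 1 control spot. With marked spots kept it was 1.15 (SE 0.46, adjusted p = 0.346). The median difference of the 57 other tested probes of row 3 was 0.80, with 13 further up. The spot in row 142 was complete, with control levels of -0.20, -0.21, -0.53 and -0.35 and PNFLX levels of 0.19, -0.35, -0.36 and 0.41. There the groups overlapped, with a difference of 0.30 (SE 0.22, unadjusted p = 0.207).

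Scn1a, the alpha subunit prominent in inhibitory neurons, was spotted at 2 places with an identical sequence (chr3:48135438-48135497, reverse strand). At row 181 control levels were -0.79, -1.52, -1.65 and -1.14 and PNFLX levels -0.37, -0.55, -0.76 and -0.71. All PNFLX samples stood above all controls, with a difference of 0.68 (SE 0.21; 1.60-fold) and an adjusted p of 0.23 by limma. At row 28 the same sequence gave control levels of -0.99, -1.22, -1.34 and -1.02 and PNFLX levels of -2.07, -1.20, -1.10 and -0.78. These overlapped, and the difference was -0.15 (SE 0.28). The median of the 64 other tested probes of row 181 was 0.34.

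Scn3a, an alpha subunit mainly of immature neurons, repeated this contrast between its spots. At row 59, its brightest, control levels were 0.53, 0.67, 0.74 and 1.07 and PNFLX levels 0.62, 0.56, 0.70 and 1.37, a difference of 0.06 (SE 0.21, adjusted p = 0.924 by limma). At row 170 all PNFLX samples (0.95, 0.77, 0.98 and 1.36) stood above all controls (0.49, 0.42, 0.38 and 0.64), and the difference was 0.53. Scn8a, the alpha subunit of nodes and axon initial segments, had control levels of 0.36, -0.06, 0.29 and 0.62 and PNFLX levels of 0.51, 0.28, 0.34 and -0.35, which overlapped (-0.11, SE 0.22, adjusted p = 0.861). Scn9a, known from sensory neurons, differed by 0.88 (SE 0.41, adjusted p = 0.423) at row 181.

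Scn3b, a beta subunit, was saturated on 6 of 8 arrays at its brighter spot and on all 8 at the other, so its differences of -0.15 and -0.48 are those of a signal at the scanner's limit.

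**Figure D3:**
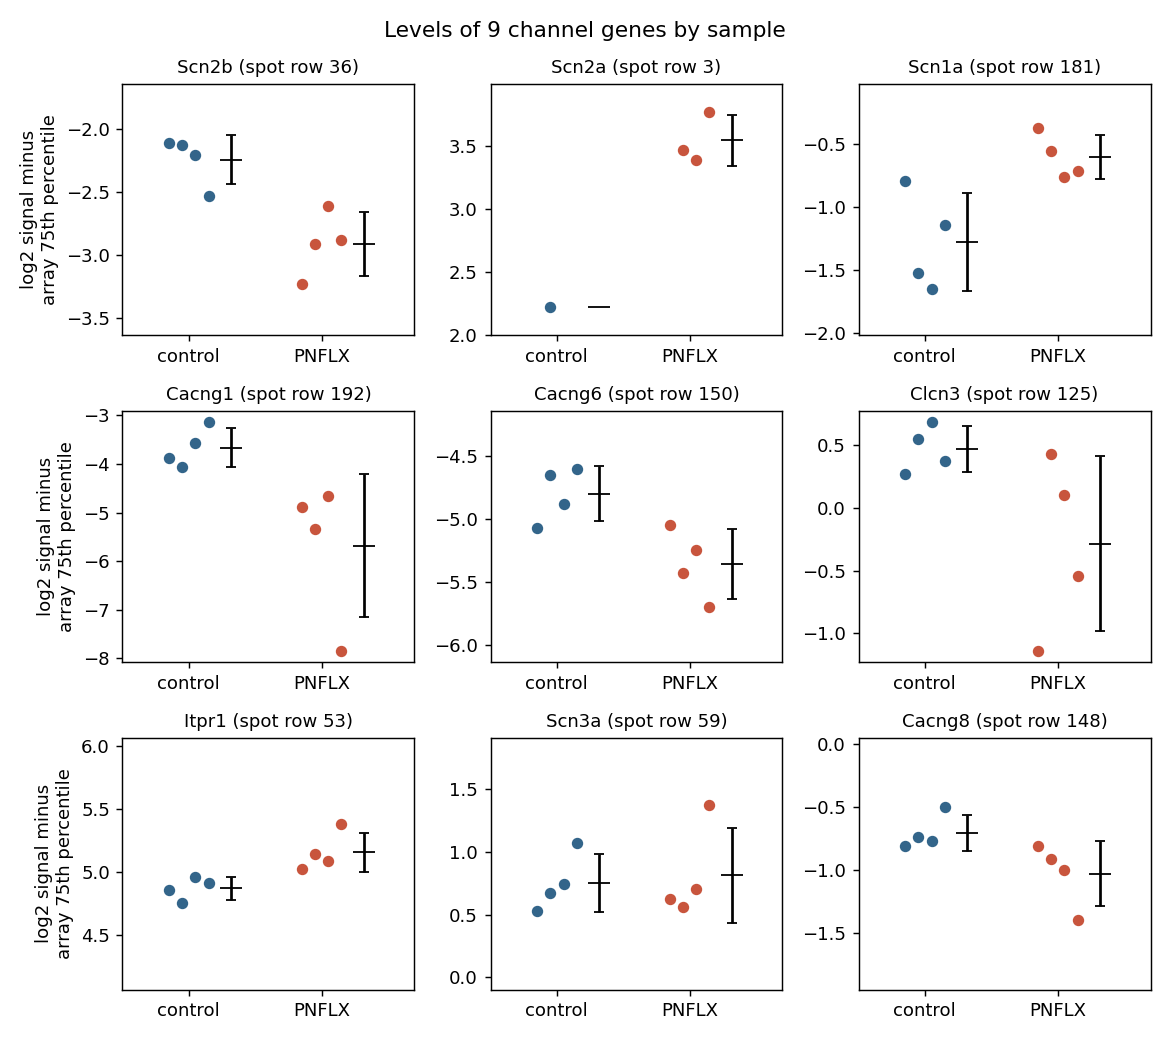
Level of 9 channel genes in each sample (points), with mean and SD beside them (bars; none where 1 value was left), each panel on its own log2 axis of at least 2 units. Scn2b, Scn2a, Scn1a, Cacng1 and Itpr1 show no overlap between the control and PNFLX samples, and the Scn2a panel has 1 control value.

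Calcium channel gamma subunits were lower in PNFLX for all 7 genes tested, with a median difference of -0.32. None passed the adjusted test (limma), and 2 had an unadjusted p under 0.05, where 12.8% of all genes did. The 7 stayed lower under quantile scaling and under normexp, while 4 of 7 were lower with no scaling between arrays and 6 of 7 after subtraction of row and column medians. Of these, Cacng2, Cacng3, Cacng4, Cacng7 and Cacng8 are TARPs, which bring AMPA-type glutamate receptors to synapses. Cacng8, the TARP abundant in the hippocampus, had control levels of -0.81, -0.74, -0.77 and -0.50 and PNFLX levels of -0.81, -0.91, -1.0 and -1.40. Its difference of -0.32 (SE 0.16, adjusted p = 0.452) became -0.05 after the row and column subtraction. Cacng2, the founding TARP stargazin, differed by -0.11 (SE 0.17), and a second spot gave -0.43. Cacng4 was at -0.64 (SE 0.32), above background on only 2 PNFLX arrays.

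Cacng1, the gamma subunit of skeletal muscle, was read at 2 spots of the same bases. Its 60 bases (chr10:97120316-97120375, reverse strand; 2 open forward frames, no capitals) were spotted in rows 76 and 192.
Cacng1: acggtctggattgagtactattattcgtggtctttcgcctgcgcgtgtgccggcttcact
In row 192, the last of the array, the other 53 tested probes had a median difference of -2.0 and 26 of them were further down. Control levels there were -3.88, -4.06, -3.56 and -3.14 and PNFLX levels -4.89, -5.33, -4.66 and -7.85. No PNFLX array had the spot well above background, so the size of the fold is uncertain. A PNFLX value under the lowest signal well above background on its array was raised to that signal. The PNFLX mean was then -5.37 against the control mean of -3.66, or 3.27-fold lower. That fold describes the row 192 spot only and is not a bound for the gene. The adjusted p was 0.254 by limma, and without PNFLX 4 the measured difference went from -2.02 to -1.3. In row 76 the same bases gave -4.45, -4.96, -4.77 and -5.27 in control and -4.72, -4.54, -4.50 and -5.95 in PNFLX, which overlapped, with a difference of -0.06. An unadjusted p under 0.05 (limma) held for 12.8% of all genes tested. Of 5 striated muscle genes tested 3 were lower in PNFLX (Mb, Tnni2 and Acta1, each at an unadjusted p under 0.05) and 2 higher. Their summed level was 1.77 to 2.23 in control and 1.11 to 1.54 in PNFLX, Ckm and Tnnt3 did not pass the filter, and the part of muscle RNA in the Cacng1 values was not tested.

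Cacng6, like Cacng1 a gamma subunit of striated muscle channels, had control levels of -5.07, -4.65, -4.88 and -4.60 and PNFLX levels of -5.05, -5.43, -5.25 and -5.70. Only control 1 and PNFLX 1 crossed. The difference was -0.55 (SE 0.18, adjusted p = 0.262 by limma) at row 150, near background, and it was -0.03 under normexp.

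Of the pore-forming calcium channel genes 6 of 9 were lower and 3 higher, with differences of -0.78 to 0.04. None passed the adjusted test, and none had an unadjusted p under 0.05 (limma). The count lower was 6 of 9 under quantile scaling and under normexp, and 8 of 9 after subtraction of row and column medians. With no scaling 7 of 9 were higher. Cacna1a, the P/Q-type pore of presynaptic terminals, had control levels of -3.70, -3.51, -3.42 and -3.30 and PNFLX levels of -3.48, -3.87, -3.52 and -4.23 (difference -0.29, SE 0.19, adjusted p = 0.558). Cacna1b, the N-type pore, differed by -0.19 (SE 0.46), with PNFLX levels from -6.05 to -3.72 against -5.37 to -4.65 in control. Both sets overlapped.

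The L-type pores, which couple activity to transcription, did not separate the groups. Cacna1c had control levels of -0.09, -0.94, -0.62 and -0.91 and PNFLX levels of -1.08, -0.76, -0.58 and 0.04 (0.04, SE 0.28). Cacna1d had -2.20, -2.79, -2.28 and -1.89 against -2.18, -2.43, -2.09 and -2.41 (0.01, SE 0.20), and a second sequence gave 0.11. T-type pores open near rest and support burst firing. Cacna1h had -0.04, -0.68, -0.51 and -0.38 in control and -0.11, -0.41, -0.39 and -1.28 in PNFLX (-0.15, SE 0.26). Cacna1g stood at -2.29, -2.42, -3.68 and -2.28 against -2.55, -2.67, -2.09 and -3.34 (0.01, SE 0.37). Cacna1e, the R-type pore, and Cacna1i, of the T type, had the lowest differences of the pores, -0.78 (SE 0.40) and -0.69 (SE 0.35), and overlapped between groups. A dimmer Cacna1e probe in row 2 was at 0.95 (SE 0.98), where the tested probes of the row had a median of 1.29. After subtraction of row and column medians the dimmer probe was at -0.32 and the brighter at -0.95 (unadjusted p = 0.0249, adjusted p = 0.426 by limma).

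Alpha2delta and beta subunits, which carry the pore to the membrane, had group means that differed by at most 0.32 log2 units at their brightest probes. A dimmer beta subunit sequence in row 191 was at -0.94 (SE 0.95), where the tested probes of the row had a median of -1.31. Cacna2d1, the gabapentin-binding subunit, had control levels of 6.65, 5.11, 5.55 and 5.49 and PNFLX levels of 5.16, 5.48, 5.55 and 5.74. The difference of -0.22 (SE 0.32) has control 1 far above the rest, and the second spot of that sequence gave 0.16 (SE 0.13). Cacnb4, a beta subunit of neurons, was even across samples, with -3.31, -3.18, -2.96 and -2.95 in control and -3.13, -3.21, -3.03 and -3.04 in PNFLX (-0.01, SE 0.13, adjusted p = 0.99 by limma). Cacnb1 differed by 0.26 (SE 0.14, adjusted p = 0.467).

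TRP channel genes differed by 0.68 log2 units or less, and none of 13 tested genes passed the adjusted test or had an unadjusted p under 0.05 (limma). In the TRPC class 4 of 6 genes were higher, with a median of 0.15. Trpc5, a receptor-operated channel of hippocampal neurons, had control levels of -5.22, -5.16, -4.72 and -5.30 and PNFLX levels of -5.00, -4.53, -3.78 and -5.05 (0.51, SE 0.29, adjusted p = 0.503). Trpc6, opened by diacylglycerol, differed by 0.61 (SE 0.28) at row 5, where the other tested probes had a median of 0.11. Trpc1 and Trpc4, at 0.10 (SE 0.16) and 0.20 (SE 0.19), had SDs of at most 0.35 within a group.

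Trpm2, a channel opened by ADP-ribose under oxidative stress, had control levels of -4.47, -3.02, -5.04 and -4.18 and PNFLX levels of -3.21, -4.51, -4.47 and -3.67, which overlapped widely (0.21, SE 0.46). Trpm4 and Trpm6 differed by -0.68 (SE 0.40) and 0.40 (SE 0.20). Trpv1, the capsaicin receptor, had control levels of -4.84, -5.11, -5.73 and -5.54 and PNFLX levels of -5.07, -5.09, -5.49 and -5.34 (0.06, SE 0.22). It was above background on 3 arrays of each group, so this level is close to the limit of what the array read.

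CLC genes were lower for 6 of 8, with a median of -0.13, but higher for 7 of 8 with no scaling. None passed the adjusted test and 2 had an unadjusted p under 0.05 (limma), where 12.8% of all genes did. Clcn3, a chloride-proton exchanger of endosomes and synaptic vesicles, had control levels of 0.27, 0.55, 0.68 and 0.37 and PNFLX levels of -1.14, 0.43, 0.10 and -0.54. PNFLX 1, 3 and 4 stood below all controls and PNFLX 2 among them, for a difference of -0.75 (SE 0.32, adjusted p = 0.375), which was -0.47 without PNFLX 1 (adjusted p = 0.446). The brighter Clcn4 probe was lowest in PNFLX 1, at -0.96 against 0.21 to 0.51 elsewhere. A second Clcn4 sequence, in row 95, had PNFLX levels of -2.44, -2.45, -2.32 and -3.18, so PNFLX 4 was lowest there.

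Calcium release channels differed little. Itpr1, the main neuronal IP3 receptor, had control levels of 4.86, 4.75, 4.96 and 4.91 and PNFLX levels of 5.02, 5.14, 5.09 and 5.38. All PNFLX samples stood above all controls by a small step: the difference was 0.29 (SE 0.13; 1.22-fold), with an unadjusted p of 0.0544 and an adjusted p of 0.402 by limma. The spot lies in row 53, whose other tested probes had a median of -0.03, and the difference was 0.18 after the row and column subtraction. Ryr3, a ryanodine receptor of hippocampal neurons, was spotted in rows 169 and 182. The brighter spot, in row 182, had control levels of -2.86, -2.81, -2.96 and -2.38 and PNFLX levels of -2.28, -2.63, -2.16 and -2.71. Its difference was 0.31 (SE 0.19, adjusted p = 0.531 by limma), and the tested probes of row 182 had a median of 0.31 as well. The other spot gave 0.39 with no overlap between groups, in a row with a median of -0.01. Itpr3 and Ryr1 differed by -0.31 (SE 0.23) and -0.35 (SE 0.33).

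Spots that hold the same bases gave a direct measure of how far a difference depended on where it was read. For 17 channel genes an identical sequence passed the filter at 2 spots. The direction of the group difference was the same in 13 of 17, and the median gap between the spots' differences was 0.31 log2 units. Of the gaps 3 were over 0.5, those of Scn1a (0.83) and Cacng1 among them. The Cacng1 spot in row 192 was not well above background on any PNFLX array, so its gap is not given. Over all 1945 such pairs of the array the median gap was 0.22 and 25.4% were over 0.5, against 17.6% in the channel genes. The direction was the same in 64.4% of all pairs, against 76.5% in the channel genes. The differences at the 2 spots correlated only weakly (Pearson r of 0.17 over all pairs and 0.19 in the channel genes). Where a sequence had a spot in row 192 and another in rows 21 to 172, which held for 20 pairs, the median difference was -1.96 at the edge and 0.05 inside. The edge spot was the lower in all 20.

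**Figure D4:**
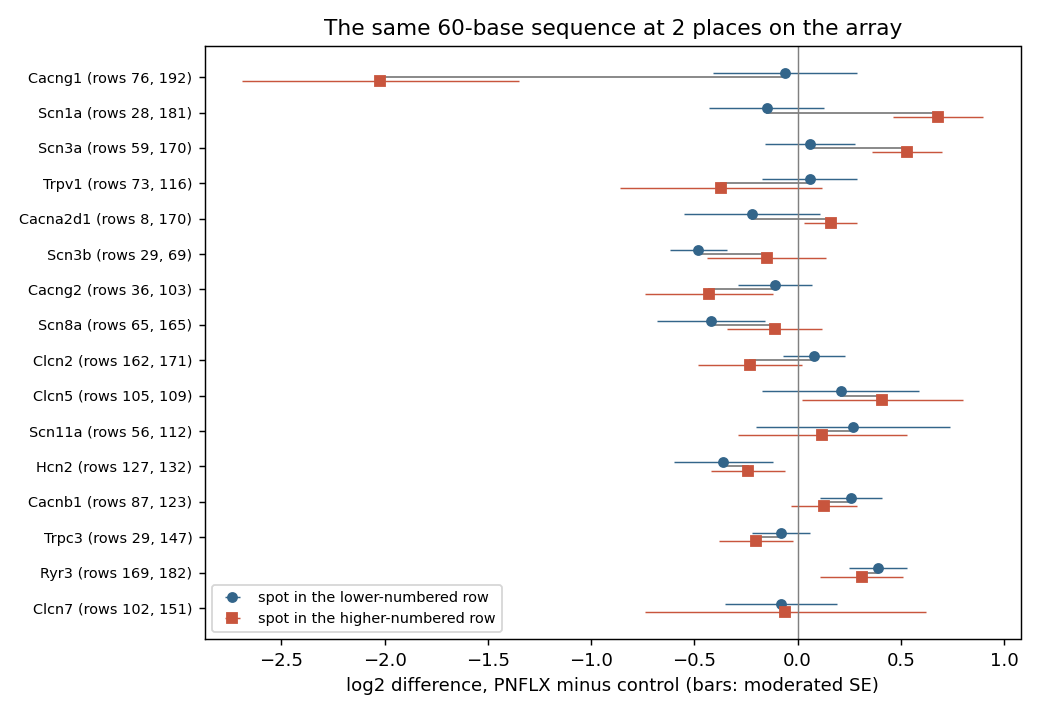
Log2 difference between PNFLX and control (horizontal axis) with limma's moderated SE (bars) at each of the 2 spots of an identical sequence, for 16 channel genes ordered by the gap between spots. Cacng1 is drawn at -0.06 in row 76 and at -2.02 in row 192, where its PNFLX values were not well above background, Scn1a differed by 0.68 in row 181 and -0.15 in row 28, and 12 of these 16 pairs lie on the same side of 0.

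Genes that work beside these channels had medians near that of all genes. Of 36 genes of calcium entry, stores and extrusion, 29 were tested; 14 were higher and 15 lower, with a median of -0.05. None passed the adjusted test and 3 had an unadjusted p under 0.05 (limma), where 12.8% of all genes did. The 3 were Fkbp1a, which binds ryanodine receptors (0.39, SE 0.12, adjusted p = 0.216 by limma), Stim2 and Atp2b1. Stim2, a calcium sensor of the endoplasmic reticulum, differed by 0.45 (SE 0.19) and Atp2b1, a plasma membrane calcium pump, by 0.57 (SE 0.25). Of 30 channel partners 25 were tested, 9 higher and 16 lower, with a median of -0.11. No partner passed the adjusted test and 4 had an unadjusted p under 0.05, beside the 12.8% of all genes. The smallest p values were those of the ubiquitin ligases Nedd4 (0.62, SE 0.16, adjusted p = 0.143) and Nedd4l (-0.65, SE 0.20, adjusted p = 0.23), which act on membrane channels, and of Rims2, an active zone protein (-0.65, SE 0.23).

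Among samples, PNFLX 4 stood apart most often. Of the 60 channel genes with 8 values it was the lowest sample in 20 (33.3%) and PNFLX 3 in none, whereas PNFLX 3 was the highest in 14 (23.3%). Over all genes PNFLX 4 was the lowest in 28.5% and also the highest in 22%, with PNFLX 3 the highest in 18.9%. The median deviation of the channel genes from their mean over samples was -0.19 in PNFLX 4 and 0.15 in control 4, the farthest on either side. Without PNFLX 4 the channel genes were lower in 33 of 62.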

How the data were processed

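Array intensity values (processed signal, mean brightness, local background and spot flags) were made by the authors with Feature Extraction 10.5.1.1, per the file headers, and were not scaled between arrays. A second, deposited table holds log2 values; they equal the log2 processed signal less its 75th percentile, with the probe's median over arrays removed, to within 0.00242. Here the log2 processed signal was scaled to the 75th percentile of 15207 probes. Spots with an outlier mark (521, of which 5 on channel probes) were dropped, a probe had to be marked above background on 4 or more of 8 arrays, and the brightest probe stood for a gene. The test was limma's (version 3.58.1, R 4.3.3), with Benjamini-Hochberg adjustment over 9440 genes and a threshold of 0.05; SE is the moderated standard error. The fit was tested on simulated data. Gene names came from RefSeq (assembly GRCr8, names only; 14098 probes matched), positions from the files (rn4), and no exon annotation was used. The number of arrays limits the precision. The members and lists were chosen with earlier results of these data known. The text names members with an unadjusted p under 0.05 or without overlap, a fixed set of well-known channels, and the 3 smallest p of each partner list, plus others chosen after their values were seen: Cacna1e, Cacna1i, Cacnb1, Cacng2, Cacng4, Clcn4, Hcn3, Itpr3, Ryr1, Scn3b, Scn9a, Trpc1, Trpc4, Trpc6, Trpm4 and Trpm6. Probe sequences were to be printed where a protein table held their translation; no such table was used here, so probes whose bases were judged coding were shown, chosen after their values were seen. Some members and a probe sequence are not reported here, though the counts include them. The vehicle and treatment end day follow the treatment protocol, since some sample descriptions give later days.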

Additional observations from a re-analysis of the deposited data

Results flagged for a closer look

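Among 78 groups of 4 samples of the 40 channel genes named here, 4 groups held a sample far from the others by Dixon's test, which chance gives in about 1 of 20 groups. Cacna1g, a T-type calcium channel pore, had a level of -3.68 in control 3 against -2.42 to -2.28 in the other control samples. Clcn4, a CLC chloride-proton exchanger, had -0.96 in PNFLX 1 against 0.44 to 0.51 in the other PNFLX samples at its brighter probe. A second Clcn4 sequence did not share this, with -2.44 in PNFLX 1 against -3.18 to -2.32. In control 1 the brighter Clcn4 probe had 0.28 against 0.21 in the other controls, a small step in a group that was otherwise even. Hcn3, an HCN subunit, had -3.30 in control 1 against -2.76 to -2.68.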

How the results depend on the processing

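The calls were 1 channel gene among 48 genes in all, 27 higher and 21 lower. They were 515 in all and 5 channel genes (Cacng1, Scn2a and Trpc6 among them) with normexp and quantile scaling, where 16 channel genes had an unadjusted p under 0.05 in place of 8. Quantile scaling alone gave 14 such genes and 72 calls, 32 of them higher. No scaling moved the median of all genes to 0.26 and of the channel genes to 0.19, with 108 calls, 92 of them higher, and 14 channel genes at an unadjusted p under 0.05. The calls were 26 with no filter, 25 with probes above background on all arrays and 10 after subtraction of row and column medians, with 0 channel genes in each. Leaving out the first and last 5 rows gave 0 calls in all (1092 at an unadjusted p under 0.05), 0 channel genes and 4 channel genes at an unadjusted p under 0.05. Scn2b, Scn2a, Scn1a, Cacng1, Cacng6 and Clcn3 kept their sign, but not their size, under every setting that gave a value: Scn2b ranged from -0.77 to -0.10, Scn2a from 0.30 to 2.85, Scn1a from 0.07 to 0.98, Cacng1 from -2.36 to -0.06, Cacng6 from -0.66 to -0.03 and Clcn3 from -0.99 to -0.46. Leaving out 1 sample at a time gave 14 (without PNFLX 2) to 60 calls (without PNFLX 3), 0 to 2 channel genes called (2 without PNFLX 3, Scn10a among them) and 7 to 14 at an unadjusted p under 0.05. The deviations of same-numbered samples correlated at 0.005 to 0.0898, and those of differently numbered samples at -0.0853 to 0.0437. These weak correlations do not settle whether the numbers pair the samples. The replicate block gave 5 calls and 0 channel genes. The remaining settings kept the counts within 1.5 times. The cause of these changes was not tested. Probes near background limit what can be read for the dim genes. Averaging spots of identical sequence was chosen after seeing the data and gave 1 channel call.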
